A study of Rattus norvegicus with 4 samples.

Results

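A panel of 40 genes that are typical of macrophages and other white blood cells was followed in ribosome profiling of neonatal rat ventricular cardiomyocytes. The genes, and the gene lists compared below, were chosen by name with earlier results of these data known. Each gene is represented by the annotated coding open reading frame (ORF) with the most counts. An annotated ORF was found under the name of 39 of the 40 genes, and Dock2 was not analysed here. Counts were present for 37 genes and 36 were tested, out of 12609 ORFs tested and 18847 listed.

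The cells came from the cardiac ventricle of Sprague-Dawley rats at postnatal day 2. They were either exposed to phenylephrine (PE, an α1-adrenergic agonist that makes cultured cardiomyocytes grow) at 20 µM for 24 h or left untreated as the control, with 2 libraries in each group. Groups follow the sample titles and the treatment tag, because the free text on treatment names PE for all 4 libraries. All cultures went through a plating step of 1 h meant to remove cells that stick early, and all were grown in serum. Ribosome-protected fragments were counted per ORF, so a value combines the amount of an mRNA with its translation. Nothing in the labels tells whether the libraries of a group are separate cultures. The p-values therefore measure the spread between these libraries alone, which may be technical. Depth was 12117629 and 12537740 footprints in PE and 11446574 and 13827599 in control.

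The heart holds macrophages from before birth. They take up dead cells and debris through scavenger receptors, sense danger through Toll-like receptors, and depend on signals through the receptor Csf1r. Many of their surface receptors carry no signalling domain of their own and pair with short membrane adaptors such as Tyrobp and Fcer1g, whose cytoplasmic tails hold an activation motif (ITAM) that recruits the kinase Syk. The transcription factor PU.1, encoded by Spi1, controls much of this programme and binds DNA at a purine-rich core, GAGGAA.

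The promoters of the 40 genes were searched for that core. A window of 250 bases before and 50 after the RefSeq start site (build GRCr8) was found for 28 of the 40 genes and missed for 12. GAGGAA stood on either strand in 20 of these 28 genes (71.4%), against 29.2% of the 27457 genes with a window. Overlap with other motifs was not considered. By outcome, it stood in the windows of 13 of the 17 genes lower after PE, of 5 of the 6 tested genes that did not pass, and not in that of Tlr2, the 1 gene higher after PE that had a window. Only 6 of the tested genes that did not pass had a window, and a link between a match and the change was not tested. A match is a description of the letters and not a binding site. The 9 genes lower after PE with the smallest p among those with a match before the start site are shown, since they carry the main result below. Each line gives 60 bases 5′ to 3′ on the gene's own strand, all before the start site, with the match in capitals (TTCCTC is GAGGAA on the opposite strand).
Cybb (chrX:16065066-16065125, minus strand): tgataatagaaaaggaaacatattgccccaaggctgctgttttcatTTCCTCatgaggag
Mrc1 (chr17:82157663-82157722, plus strand): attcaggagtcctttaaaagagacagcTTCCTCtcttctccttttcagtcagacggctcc
Ptprc (chr13:52259877-52259936, minus strand): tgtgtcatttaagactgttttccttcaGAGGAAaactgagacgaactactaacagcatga
Cd53 (chr2:197087908-197087967, minus strand): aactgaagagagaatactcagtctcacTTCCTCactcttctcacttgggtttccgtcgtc
Laptm5 (chr5:148371790-148371849, plus strand): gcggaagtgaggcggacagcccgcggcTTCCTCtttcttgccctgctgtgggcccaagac
Lyz2 (chr7:54798025-54798084, minus strand): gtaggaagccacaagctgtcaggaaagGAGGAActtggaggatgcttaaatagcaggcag
Cd68 (chr10:54882442-54882501, minus strand): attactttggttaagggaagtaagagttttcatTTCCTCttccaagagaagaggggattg
Trem2 (chr9:20151780-20151839, minus strand): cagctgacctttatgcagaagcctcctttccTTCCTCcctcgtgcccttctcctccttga
Csf1r (chr18:56834257-56834316, plus strand): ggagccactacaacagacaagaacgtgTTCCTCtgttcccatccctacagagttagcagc
The match nearest the start site began 14 bases before it in Cybb, 35 in Mrc1 and 29 in Trem2. In Ptprc it lay farther off, 163 bases before the start. Coordinates of these sequences are on GRCr8, whereas those of the ORFs below are on Rnor_6.0, the build named for the deposited files.

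Most of the leukocyte genes were lower after PE. Of the 36 tested, 26 fell, 2 rose and 8 did not pass. A call needed an adjusted p under 0.05 (Benjamini-Hochberg over all tested ORFs) in the quasi-likelihood test of edgeR. Among all tested ORFs, 21.3% fell and 21.4% rose. The median log2 fold change (PE over control) was -0.62 for the 36 genes and 0.00 for all tested ORFs, and the interquartile range was -0.91 to -0.33, against -0.27 to 0.26. The falls were moderate: 19 of the 26 reached 1.5-fold and 3 reached 2-fold. PE and control libraries did not overlap in 34 of the 36, with PE below control in 32. Among all tested ORFs, groups did not overlap in 68.6%, and PE lay below control in 34.3%. The filter on low counts was passed by Cd74 and Ikzf1 through the control libraries only. Without them, 25 of 34 fell and 2 rose.

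**Figure D1:**
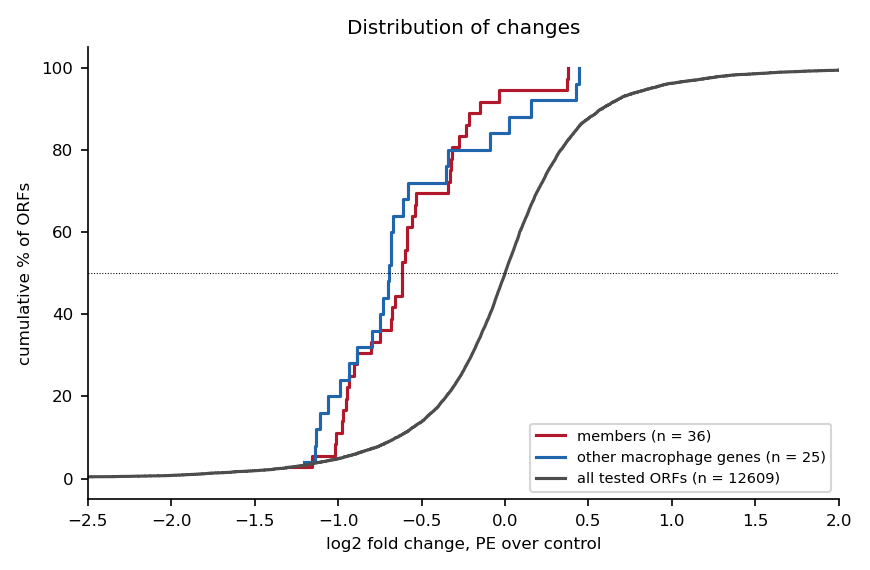
Cumulative share of ORFs (vertical axis, %) by log2 fold change of PE over control (horizontal axis) for the members, the other macrophage genes described below and all tested ORFs. The curve of the members crosses 50% at -0.62 and that of all tested ORFs at 0.00.

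Taken as a sum, the 37 genes with counts had 1287 and 1291 CPM (counts relative to the TMM-scaled library size) in the PE libraries, against 1888 and 1877 CPM in control. The libraries of a group lay close together, and the PE sum was 68.5% of that in control. As raw counts, they made up 0.127% of each PE library, against 0.192% and 0.190% of the control libraries. Members were thus a small part of all footprints. CPM is a share of each library. In such bulk samples a smaller number of leukocytes, less RNA or translation per leukocyte, and more footprints from other cells cannot be told apart.

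**Figure D2:**
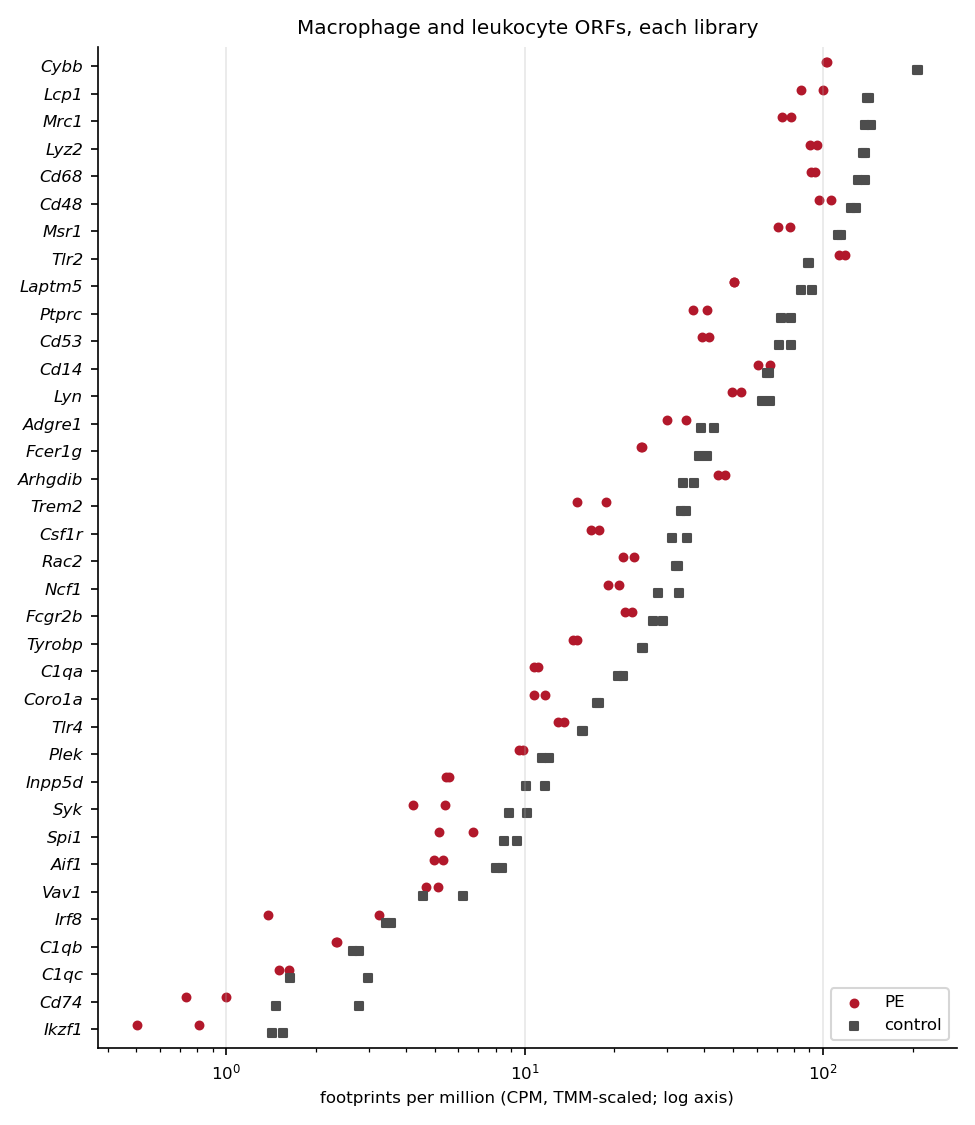
Footprint level in each library (horizontal log axis, CPM) for the 36 tested members, PE as red circles and control as grey squares, ordered by the control mean. PE lies left of control in all rows except Tlr2 and Arhgdib, where it lies right, and Cd14 and Vav1, where groups overlap.

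Receptors that define macrophages were among the clear falls. Mrc1, the mannose receptor CD206 that takes up glycoproteins (chromosome 17, 81352784 to 81432986), had 77.9 and 72.8 CPM in PE, against 144.5 and 138.5 CPM in control. Its log2 fold change was -0.91 ± 0.05 (SE, here and below from 2 libraries a group; adjusted p = 3.3e-16, edgeR). Csf1r, the receptor for the macrophage growth factor CSF-1 (chromosome 18, 56431891 to 56457671), had 16.7 and 17.8 CPM in PE, against 34.9 and 31.1 CPM in control. Both PE libraries lay below both control libraries, with a log2 fold change of -0.93 ± 0.10 (adjusted p = 5.8e-09, edgeR). Trem2, a receptor for lipids and debris (chromosome 9, 14611934 to 14617841), had 14.9 and 18.7 CPM in PE, against 33.6 and 34.9 CPM in control, a 2.03-fold fall. Only 61.8% of the P-sites (the position of the ribosome's peptidyl site) on Trem2 were in the frame of the ORF, the lowest share among the 36, whose median was 83.4%.

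The scavenger receptor Msr1, which binds modified lipoproteins, had 77.3 and 70.6 CPM in PE, against 112.2 and 114.9 CPM in control. Cd68, a glycoprotein of the endosomes and lysosomes of macrophages, had 91.5 and 94.4 CPM in PE, against 137.9 and 131.3 CPM in control. These falls, of 0.62 ± 0.05 for Msr1 and 0.53 ± 0.05 for Cd68 on the log2 scale, were smaller in size than that of Mrc1. Adgre1, the antigen F4/80, had 34.7 and 30.0 CPM in PE, against 43.3 and 38.9 CPM in control. Its log2 fold change of -0.34 ± 0.09 passed (adjusted p = 0.0018, edgeR), but it no longer did without PE replicate 2 (adjusted p = 0.058). No counts were assigned to Cd163, the scavenger receptor for haemoglobin complexes, in any library, although 41 P-sites were listed on it.

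Surface proteins shared by white blood cells in general fell too. Ptprc encodes CD45, the receptor phosphatase found on all nucleated blood cells (chromosome 13, 55062673 to 55173496). It had 40.8 and 36.8 CPM in PE, against 78.1 and 72.6 CPM in control, a log2 fold change of -0.95 ± 0.07 (adjusted p = 3.5e-13, edgeR). The tetraspanin Cd53 had 41.6 and 39.5 CPM in PE, against 71.5 and 78.1 CPM in control, a 1.85-fold fall. Cd48, a lipid-anchored adhesion receptor, had 96.7 and 106.7 CPM in PE, against 128.9 and 124.5 CPM in control, a 1.24-fold fall. For all 3, every PE library lay below every control library.

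Of Tlr2, Tlr4 and Cd14, which recognise microbial products, 1 rose and the other two did not pass. Tlr2, which senses bacterial lipoproteins (chromosome 2, 182840904 to 182843258), had 118.3 and 113.5 CPM in PE, against 89.1 and 90.1 CPM in control. It rose by 0.37 ± 0.05 (log2; adjusted p = 1.9e-07, edgeR), with both PE libraries above both control libraries. Tlr4, the endotoxin receptor, had 13.6 and 13.0 CPM in PE, against 15.6 and 15.7 CPM in control, and its log2 fold change of -0.23 ± 0.13 did not pass (adjusted p = 0.14, edgeR). Cd14, which hands endotoxin to Tlr4, had 60.8 and 66.6 CPM in PE, against 65.8 and 65.0 CPM in control. The groups overlapped, with a log2 fold change of -0.04 ± 0.06 that did not pass. Toll-like receptors and Cd14 are also made by cells other than leukocytes, including heart muscle cells and fibroblasts.

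The ITAM adaptors fell together with the receptors. Tyrobp, the adaptor DAP12 that Trem2 requires (chromosome 1, 88875458 to 88879128), had 14.5 and 15.02 CPM in PE, against 24.7 and 25.01 CPM in control, a log2 fold change of -0.75 ± 0.11. Fcer1g, the γ chain of Fc receptors (chromosome 13, 89602185 to 89606245), had 24.7 and 24.6 CPM in PE, against 41.0 and 38.3 CPM in control, a log2 fold change of -0.68 ± 0.09. The spread within a group was small beside the distance between groups in both. Fcgr2b, the inhibitory Fc receptor for IgG, had 22.9 and 21.8 CPM in PE, against 29.1 and 27.0 CPM in control. It passed with a log2 fold change of -0.33 ± 0.10, but not with DESeq2, where the adjusted p was 0.085. It also failed when PE replicate 2 was left out (adjusted p = 0.067) or control replicate 1 (adjusted p = 0.065). Fcgr2b belongs to a family of near-identical receptor genes and had 0.522 counts per P-site, where the median of the 36 was 1.20, so its count is uncertain.

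Among the signalling enzymes downstream of these receptors, Syk and Inpp5d showed the largest falls. Syk, the kinase recruited by ITAMs, had 5.43 and 4.22 CPM in PE, against 10.2 and 8.84 CPM in control, a log2 fold change of -0.97 ± 0.19 (adjusted p = 9.1e-05, edgeR). Inpp5d, the inositol phosphatase SHIP-1, had 5.60 and 5.44 CPM in PE, against 11.7 and 10.1 CPM in control, a log2 fold change of -0.98 ± 0.17. Lyn, a Src family kinase that phosphorylates ITAMs, had 49.5 and 53.3 CPM in PE, against 62.6 and 66.7 CPM in control. It fell by 0.33 ± 0.07 on the log2 scale. Plek, the protein kinase C substrate pleckstrin, had 9.86 and 9.58 CPM in PE, against 12.1 and 11.5 CPM in control, and did not pass (log2 fold change -0.27 ± 0.15). Vav1, an exchange factor for Rac, had 4.68 and 5.11 CPM in PE, against 4.56 and 6.20 CPM in control, with overlapping groups and no call. The phosphatase Ptpn6 (SHP-1) had 0 counts in every library but 662 P-sites in the deposited annotation, so no comparison was possible for it.

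Of the actin and Rac genes, 3 fell and 1 rose. Lcp1, the actin-bundling protein L-plastin of blood cells, had 84.4 and 99.9 CPM in PE, against 140.3 and 143.0 CPM in control, a log2 fold change of -0.62 ± 0.05. Rac2, the blood-cell Rac GTPase, had 23.3 and 21.4 CPM in PE, against 32.8 and 32.1 CPM in control, a log2 fold change of -0.54 ± 0.10. Coro1a, an actin regulator of leukocytes, had 11.7 and 10.7 CPM in PE, against 17.8 and 17.5 CPM in control, a log2 fold change of -0.66 ± 0.13. In each of these 3 genes the PE libraries lay below the control libraries. Arhgdib went the other way, with 44.5 and 47.0 CPM in PE, against 36.9 and 33.9 CPM in control. It rose by 0.38 ± 0.08 on the log2 scale (adjusted p = 2.2e-04, edgeR). Was, the Wiskott-Aldrich syndrome protein, had 3 and 3 counts in PE, against 7 and 17 counts in control. It was too low to be tested. Was also had 0.221 counts per P-site on 136 P-sites, where the median of the tested members was 1.20. Its count, and with it the values that follow, are therefore uncertain. Without the filter on low counts its log2 fold change was -1.86 (adjusted p = 0.049, edgeR). The adjusted p was 0.13 without PE replicate 1, 0.14 without PE replicate 2 and 0.045 without control replicate 1, and it is 0.22 in the authors' deposited table.

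The oxidase subunits Cybb and Ncf1 and the lysozyme Lyz2 were lower. Cybb, the membrane subunit gp91phox of the NADPH oxidase that makes superoxide (chromosome X, 14578330 to 14610049), had the most counts of the members in both control libraries, whereas Tlr2 had more in both PE libraries. Cybb had 103.1 and 102.1 CPM in PE, against 208.3 and 206.7 CPM in control, a 2.02-fold fall (log2 fold change -1.02 ± 0.04; adjusted p = 6.6e-20, edgeR). The replicates of each group differed by far less than the groups did. Ncf1, the cytosolic organiser p47phox, had 20.8 and 19.1 CPM in PE, against 28.1 and 32.9 CPM in control, a log2 fold change of -0.62 ± 0.11. Lyz2, lysozyme, had 95.7 and 90.9 CPM in PE, against 138.8 and 136.3 CPM in control, a log2 fold change of -0.56 ± 0.05. Ncf4, the cytosolic subunit p40phox and not among the 40, had 6.93 and 6.25 CPM in PE, against 5.51 and 7.34 CPM in control. Its groups overlapped and it did not pass (log2 fold change 0.02 ± 0.20). The partner of Cybb in the membrane, Cyba, is not confined to phagocytes and is given with the other macrophage genes below.

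The 3 chains of complement C1q, which assemble into a single complex, did not have like counts. C1qa (chromosome 5, 155261481 to 155263155) had 11.1 and 10.7 CPM in PE, against 20.6 and 21.5 CPM in control, a log2 fold change of -0.95 ± 0.12 (adjusted p = 1.3e-07, edgeR). C1qb had 2.34 and 2.36 CPM in PE, against 2.67 and 2.78 CPM in control, and C1qc had 1.503 and 1.62 CPM in PE, against 1.63 and 2.99 CPM in control. Neither passed, with log2 fold changes of -0.22 ± 0.31 and -0.59 ± 0.38 whose errors are wide at these counts. That of C1qc was -0.94 without control replicate 1 and -0.07 without control replicate 2. Per kb of ORF, the control level was 28.6 CPM for C1qa, 3.59 CPM for C1qb and 3.11 CPM for C1qc. P-sites were ordered in the same way, with 702 on C1qa, 122 on C1qb and 88 on C1qc. Whether the change differed between the chains was not tested.

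Laptm5, a lysosomal membrane protein of blood cells (chromosome 5, 149047688 to 149068440), had 50.5 and 50.5 CPM in PE, against 84.2 and 91.9 CPM in control, a log2 fold change of -0.80 ± 0.06. Cd74, the invariant chain that escorts MHC class II, had 1.00 and 0.731 CPM in PE, against 1.46 and 2.78 CPM in control. Its log2 fold change of -1.31 ± 0.44 passed (adjusted p = 0.016, edgeR). DESeq2 did not call it (adjusted p = 0.13), nor did edgeR when PE replicate 2 was left out (adjusted p = 0.10) or control replicate 2 (adjusted p = 0.40, with a value of -0.75). Of 5 genes of MHC class II and its regulation, RT1-Ba, RT1-Bb, RT1-Da and Ciita were not analysed here. RT1-Db1 had 7 and 4 counts in PE, against 0 and 2 counts in control, and was too low to be tested.

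Transcription factors of the lineage were read at low levels. Spi1, which encodes PU.1 (chromosome 3, 79919166 to 79937336), had 5.18 and 6.74 CPM in PE, against 9.47 and 8.55 CPM in control. Its log2 fold change of -0.59 ± 0.18 passed (adjusted p = 0.0096, edgeR), but not with DESeq2 (adjusted p = 0.099) or without PE replicate 1 (adjusted p = 0.15). Irf8, a factor for monocytes and dendritic cells, had 3.26 and 1.38 CPM in PE, against 3.44 and 3.56 CPM in control, and did not pass (log2 fold change -0.60 ± 0.32). The PE libraries of Irf8 differed widely, and the value was -1.34 without PE replicate 1 (adjusted p = 0.0062), against -0.10 without PE replicate 2 (adjusted p = 0.85). Ikzf1 (Ikaros), a factor of lymphoid and other blood cells, had 0.501 and 0.812 CPM in PE, against 1.55 and 1.42 CPM in control. It did not pass (log2 fold change -1.16 ± 0.49; adjusted p = 0.055, edgeR). It did pass with library totals alone (adjusted p = 0.045), with a minimum of 10 counts in every library of a group (adjusted p = 0.036) and with annotated ORFs summed per gene (adjusted p = 0.049). Aif1, the calcium-binding protein IBA1 of macrophages, had 5.34 and 4.95 CPM in PE, against 8.43 and 8.05 CPM in control. It passed with a log2 fold change of -0.68 ± 0.19 but not with DESeq2 (adjusted p = 0.062).

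**Figure D3:**
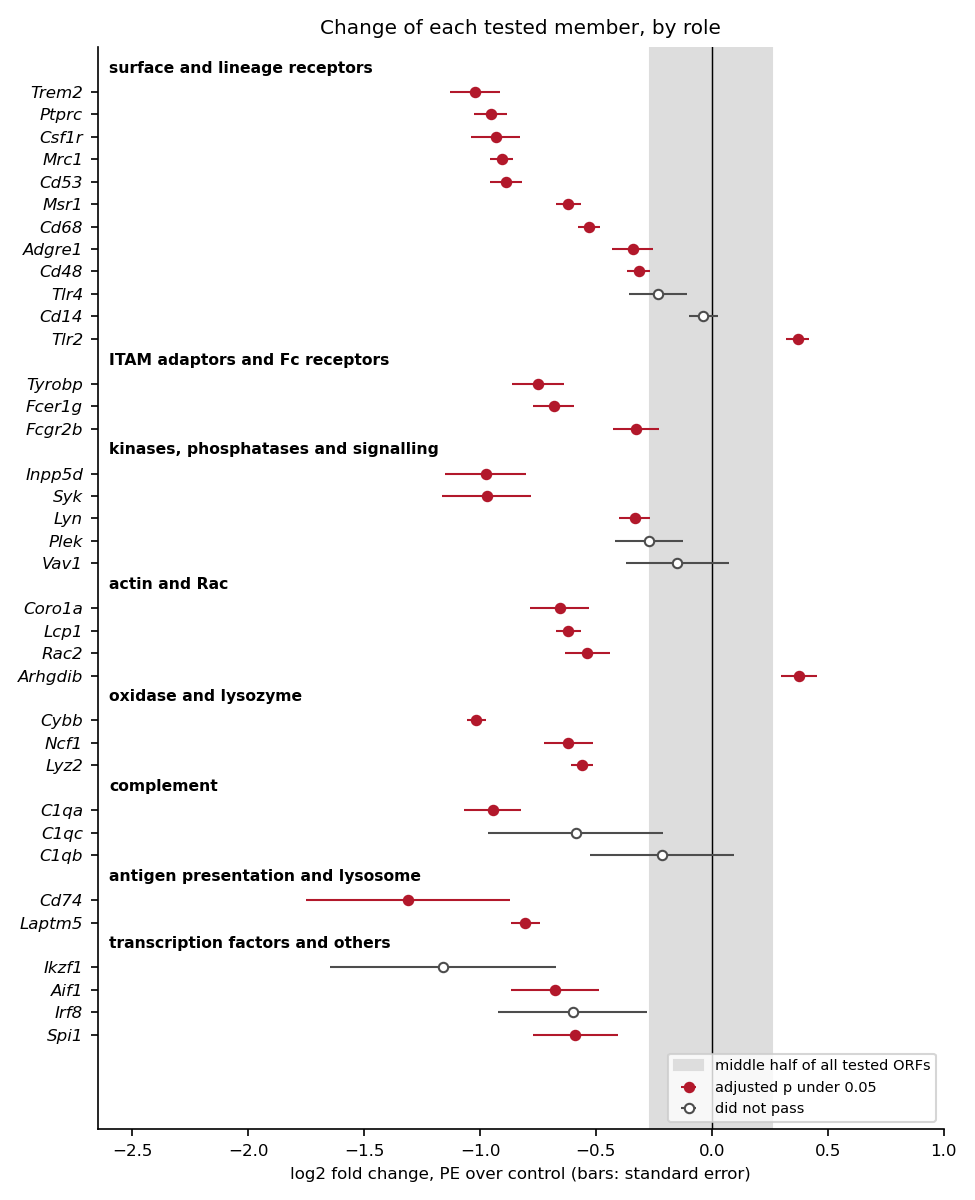
Log2 fold change of PE over control (horizontal axis) with its standard error for the 36 tested members, grouped by role, filled red where the adjusted p was under 0.05 and open grey where it was not. The grey band is the interquartile range of all tested ORFs, -0.27 to 0.26, and 26 members lie to the left with a call, while Tlr2 (0.37) and Arhgdib (0.38) lie to the right.

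Levels between genes are comparable only per length of ORF. On that scale, in CPM per kb, Lyz2 was the highest, at 210.1 in PE and 309.8 in control, followed in control by Cd48, Fcer1g, Cd68 and Cybb. Cybb ranked 8 in PE with 60.0 and 5 in control with 121.3. Ptprc and Csf1r, long receptors, stood at 22.0 and 11.3 CPM per kb in control. The lowest tested member was Ikzf1, with 0.426 in PE and 0.964 in control. Tlr2, Arhgdib and Cd14 were among several members that stood higher in the order in PE than in control. They had 49.3, 76.3 and 57.1 CPM per kb in PE and 38.1, 59.0 and 58.6 in control. Vav1, for example, also ranked higher, at 32 in PE and 35 in control.

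Short ORFs outside the coding frame were listed on a few member genes, and of 6 such ORFs 2 were tested, neither of which passed. An upstream ORF of 144 nt that overlaps the start of Tlr2 had 25 and 26 counts in PE, against 15 and 17 counts in control (log2 fold change 0.75 ± 0.39; adjusted p = 0.12, edgeR). An overlapping upstream ORF of 81 nt on Cybb had 13 and 12 counts in PE, against 17 and 21 counts in control (-0.52 ± 0.44; adjusted p = 0.36, edgeR). For both, the sign was that of the coding ORF, while only 42.1% of the P-sites on the Tlr2 upstream ORF and 52.0% of those on the Cybb one were in their frame. ORFs that overlap a coding sequence share part of its footprints. An upstream ORF of 33 nt on Tlr4 had 8 and 13 counts in PE, against 3 and 10 counts in control. A downstream ORF of 39 nt on Fcer1g had 2 and 1 counts in PE, against 5 and 3 counts in control. The ORFs inside the coding sequences of Ncf1 and Tlr2 had 0 counts.

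Other macrophage genes, not among the 40, were mostly lower as well. Of 36 such genes an annotated ORF was listed for 28 and tested for 25. Of these 25, 18 fell, 2 rose and 5 did not pass, with a median log2 fold change of -0.69. Among all tested ORFs, 21.3% fell and 21.4% rose. With DESeq2, 15 of the list fell, and Alox5ap, Cd33 and Mertk no longer passed. The transmembrane glycoprotein Gpnmb, which many cell types make besides macrophages, had 1647 and 1638 CPM in PE, against 2602 and 2671 CPM in control (-0.68 ± 0.02). It held most of the footprints of the list, and without it the sum was 489 and 463 CPM in PE, against 701 and 738 CPM in control. The integrins of phagocytes fell, Itgb2 with 95.2 and 93.7 CPM in PE, against 187.1 and 206.7 CPM in control, and Itgax with 21.4 and 19.8 CPM in PE, against 42.7 and 47.5 CPM in control. The lysosomal protease cathepsin S (Ctss) fell by 0.80 ± 0.09 and the actin regulator Nckap1l (HEM1) by 0.88 ± 0.10 on the log2 scale. The rises, named for being the 2 that passed in that direction, were in Fgr, a Src family kinase, by 0.44 ± 0.12, and Cd180, a Toll-like receptor homologue, by 0.16 ± 0.06. That of Cd180 did not pass with library totals alone (adjusted p = 0.12), with DESeq2 (0.20), without PE replicate 2 (0.27) or without control replicate 2 (0.21). Cyba, the partner of Cybb, fell by 0.34 ± 0.05 on the log2 scale. Whether Cyba and Cybb differed in their change was not tested.

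Both ligands of Csf1r were read in the same cultures. Csf1 had 402 and 381 CPM in PE, against 407 and 409 CPM in control, a log2 fold change of -0.06 ± 0.03 that did not pass (adjusted p = 0.092, edgeR). Il34 was far less abundant, with 2.09 and 1.14 CPM in PE, against 4.13 and 3.63 CPM in control, and fell by 1.26 ± 0.32 on the log2 scale (adjusted p = 0.0019, edgeR). Without PE replicate 2 that fall did not pass (adjusted p = 0.055). Csf1 passed as lower with library totals alone (-0.10, adjusted p = 0.0029) and without PE replicate 1 (-0.10, adjusted p = 0.0075). Csf2, another growth factor of myeloid cells, had 12 and 15 counts in PE, against 7 and 5 counts in control. It did not pass (adjusted p = 0.077, edgeR), except as higher with a minimum of 10 counts in every library of a group (adjusted p = 0.048).

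The label of the panel was checked against markers that separate leukocyte types. Defining macrophage genes such as Csf1r, Adgre1, Cd68 and Mrc1 had at least 200 counts in every library. Some other macrophage markers had counts at or near 0. Siglec1 had 0 and 3 counts in PE, against 1 and 3 counts in control. Vsig4 had 3 and 0 counts in PE, against 6 and 2 counts in control. Cd163 and Fcgr3a had 0 in all libraries. P-sites were nevertheless listed, 197 on Siglec1, 190 on Fcgr3a, 41 on Cd163 and 8 on Vsig4. Low counts on Siglec1, Fcgr3a and Cd163 therefore do not show that footprints were lacking. Their P-sites were few all the same, where Csf1r had 1038, Adgre1 1536, Cd68 4701 and Mrc1 4419. The 6 B cell markers, and Cd3e, Cd3d and Cd3g of the T cell receptor complex, were not analysed here, because no ORF stood under their names. Of 10 T and NK cell markers, Cd2, Cd8a and Lck could be read, and the sum of these 3 was 0.835 and 1.54 CPM in PE, against 1.72 and 1.35 CPM in control. Of 7 neutrophil markers Camp alone could be read, with 4.01 and 2.36 CPM in PE, against 2.24 and 2.21 CPM in control, and it did not pass. Of 6 mast cell markers, the proteases Cpa3 and Tpsab1 had at most 10 counts in any library. Kit, which other cells of the heart also make, fell by 0.40 ± 0.08 on the log2 scale. Pf4, a chemokine best known from platelets, had 78.1 and 69.2 CPM in PE, against 106.8 and 109.7 CPM in control, while the platelet integrin Itga2b had at most 15 counts in any library. Lymphocytes could be judged from these few low counts alone.

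**Figure D4:**
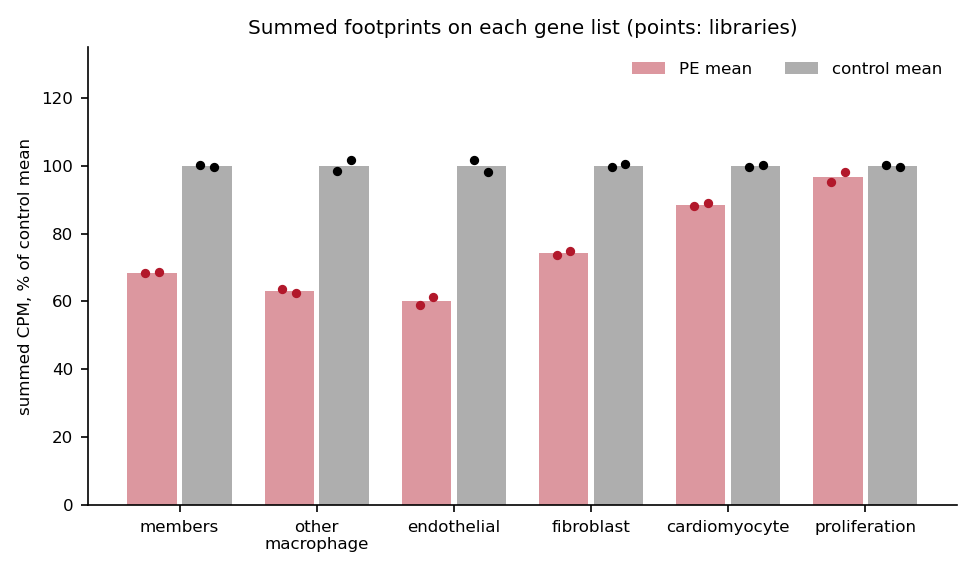
Summed CPM of each gene list as a percentage of the control mean (bars: mean of the 2 libraries, points: libraries), PE in red and control in grey. The members stand at 68.5% in PE, the other macrophage genes at 63.1%, endothelial markers at 60.2%, fibroblast markers at 74.2%, cardiomyocyte markers at 88.6% and proliferation markers at 96.7%.

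Markers of other cells in the culture moved alongside. Of 7 tested endothelial markers 4 fell and 1 rose, and their sum was 134 and 140 CPM in PE, against 232 and 223 CPM in control. The rise, in Egfl7, did not pass with DESeq2 (adjusted p = 0.056) or without PE replicate 1 (adjusted p = 0.14). The endothelial cadherin Cdh5 made up much of that sum and fell by 0.94 ± 0.05 on the log2 scale. Kdr, another endothelial marker, had 0.276 counts per P-site, so its count is uncertain. Of 8 tested fibroblast and matrix markers 5 fell and 2 rose, with a sum of 28980 and 29380 CPM in PE, against 39170 and 39460 CPM in control. The collagen Col1a2 was not tested and is all but missing from that sum. It had 158850 P-sites but 0 and 2 counts in PE, against 0 and 0 counts in control. Among the tested ones the collagen Col3a1 fell by 1.72 ± 0.01 while Dcn and Fn1 rose by 0.70 ± 0.01 and 0.79 ± 0.01. Of 7 tested cardiomyocyte markers 6 fell and 1 rose, with a sum of 49260 and 49620 CPM in PE, against 55700 and 55950 CPM in control. With the length trend removed 4 fell and 2 rose, and 5 fell without either of the PE libraries in turn. Their median log2 fold change was -0.20, against -0.38 for fibroblasts, -0.48 for endothelial cells and -0.62 for the members. With the length trend removed these medians were -0.15, -0.37, -0.34 and -0.65, in the same order. Among the cardiomyocyte markers Myh6 fell most, with 2614 and 2689 CPM in PE, against 6562 and 6610 CPM in control. Myh6 had 0.19 counts per P-site and Myh7 had 0.664, so their counts, and with them the cardiomyocyte sum, are uncertain. Of 4 proliferation markers 2 fell and 1 rose, with a sum of 299 and 308 CPM in PE, against 315 and 313 CPM in control. Of the falls, Top2a was near the threshold (adjusted p = 0.048), and none passed with the length trend removed. The part of these other cells in the falls of the leukocyte genes was not tested.

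The authors' deposited table, a DESeq2 comparison of the same libraries, gives an adjusted p for 37 of the members. Of these, 22 were lower in the authors' deposited table and 2 higher at an adjusted p under 0.05, where 12.8% of all ORFs with an adjusted p were lower and 12.9% higher. In that deposited table the log2 fold change of Cybb was -1.02, that of Mrc1 -0.91 and that of Tlr2 0.37.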

How the data were processed

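Ribosome profiling libraries of 2 PE and 2 control samples were analysed. The submitters' processing notes name STAR 2.4.2a, Bowtie 1.1.2, cutadapt 2.0 and the build Rnor_6.0; ORF calling and the counting program were not given in the sources used here. Raw counts per ORF were deposited by the authors as whole numbers. The deposited annotation holds, per the file headers, ORF class, coordinates, P-site counts pooled over libraries, and the authors' own DESeq2 log2 fold changes and adjusted p-values. Counts were filtered with filterByExpr, scaled by TMM (factors 0.982 to 1.02) and tested with edgeR 4.0.16 in R 4.3.3, with its robust quasi-likelihood test over the whole table without a replicate term. The common biological coefficient of variation was 2.18%, so small changes pass. The test was checked on simulated data. SE is the log2 fold change over the square root of F, and SE beside a value has n = 2 libraries per group. Members and gene lists were chosen with earlier results of these data known. Every tested member that passed or averaged at least 5 CPM was given in every library, and of other lists mainly the genes with the smallest p. Promoter windows are RefSeq's. Alternatives were RLE factors, library totals, other count filters, DESeq2 1.42.0, a replicate block, left-out libraries, removal of the trend with ORF length, and summed ORFs per gene. Libraries within a group differed beyond sampling noise (chi-square over degrees of freedom 1.60 in PE and 1.62 in control).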

Additional observations from a re-analysis of the deposited data

Results flagged for a closer look

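Several ORFs of member genes held P-sites in the deposited annotation although their counts were 0 in all 4 libraries. By counting error alone, a count of 0 allows up to 3 counts, or 0.262 CPM in the shallowest library. That limit does not bound the footprints on these ORFs, because P-sites were listed on them. Both annotated ORFs of Ptpn6 had P-sites, 662 and 653, as had both of Cd163, with 41 each. An annotated ORF of Was with 1065 nt had 109. Of the ORFs inside a coding sequence, that of Ncf1 had 308 P-sites and that of Tlr2 had 168. Over the whole table, 1807 annotated ORFs had 0 counts. The P-sites are pooled over libraries, so they hold no comparison of PE with control.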

How the results depend on the processing

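Across the alternatives, 22 to 27 members fell and 2 rose, and their median log2 fold change was between -0.69 and -0.61. Over all ORFs, DESeq2 called 1793 higher and 1799 lower, against 2696 and 2690 with edgeR. Of the other macrophage genes, 15 fell and 1 rose with DESeq2, and 19 fell and 1 rose with library totals alone. Their median log2 fold change was between -0.80 and -0.65 when a library was left out. With single libraries left out, Cd14 ran from -0.10 to 0.024 (positive without PE replicate 1) and Vav1 from -0.34 to 0.10 (positive without control replicate 2). The median of the proliferation markers turned to 0.018 with the length trend removed. The summed CPM without Cybb was 1184 and 1189 in PE, against 1680 and 1670 in control, and with library totals alone 1271 and 1268 in PE, against 1917 and 1904 in control. Same-numbered libraries did not deviate together (correlation -0.02 over ORFs), and with a replicate block 26 members fell and 2 rose. C1qb, C1qc, Irf8, Ikzf1 and Cd74 had under 4 CPM in every library and standard errors of 0.31 to 0.49.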
